A study of Mus musculus with 6 samples.

Results

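Matricellular proteins are secreted into the extracellular matrix, where they act mainly as signals and organisers rather than as load-bearing fibres. They bind collagen, growth factors and cell surface receptors such as integrins. Many are made at low levels in the healthy adult heart and are produced by activated fibroblasts during repair, and periostin is widely used as a marker of activated cardiac fibroblasts. The group described here holds 10 genes: Postn, Tnc, Tnxb, Fn1, Spp1, Sparc, Vcan, Tgfbi, Cthrc1 and Cilp. They were chosen by name, with earlier results of these data known, as were the gene lists set beside them below. Every non-control probe whose RefSeq accession belongs to 1 of the 10 genes was taken. This gave 14 of 55681 probes and 10 of 20145 genes on the array.

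Messenger RNA of the heart ventricle was measured on 6 one-colour Agilent arrays, 3 from Tead1 icKO and 3 from control mice. The titles call the arrays of a group biological replicates. All mice were male C57bl/6j, 11 to 12 weeks old. The Tead1 icKO mice were Tead1F/F with the Myh6-CreER transgene and received tamoxifen. Myh6-CreER makes a tamoxifen-activated Cre recombinase from a cardiomyocyte promoter, so that the gene for TEAD1, the transcription factor that carries the output of the Hippo pathway, is deleted in heart muscle cells. The control mice carried floxed Tead1 and received tamoxifen as well. No Cre is given for the controls in the labels, and so loss of Tead1 and presence of the transgene cannot be told apart. RNA came from whole ventricle, in which fewer cells of a type and less RNA per cell cannot be told apart.

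The 75th percentile of the spot signal was 292 to 348 on the icKO arrays and 189 to 233 on the control arrays, and 47.7% to 50.9% of probes lay well above background. Levels are given below as log2 signal minus that percentile of the same array, so that a level of 0 is the 75th percentile of the array. A probe entered the test when at least 1 group had it well above background on each of its 3 arrays, and a gene stands for its brightest such probe. The test was limma with Benjamini-Hochberg adjustment over 22278 features and a threshold of 0.05. It called 9974 features (44.8%), of which 3573 were higher in icKO ventricles (16.0% of features) and 6401 lower (28.7% of features). The choice of scaling moved the median difference of all features between -0.14 as reported and 0.30 with spike-in spots above background, and the share of calls that were higher between 35.8% and 81.0%. The brightest Tead1 probe had levels of 3.66, 3.44 and 3.46 on the icKO arrays, against 4.01, 3.79 and 3.96 on the control arrays (difference -0.40 ± 0.11 SE, adjusted p = 0.0300). Scaling by the median ended that call (-0.24, adjusted p = 0.186), and the difference was 0.043 with spike-in spots above background. Leaving out icKO 2, icKO 3, control 1 or control 3 also ended it. Whether the probe lies in the deleted stretch is not known here, so it does not check the labels.

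Of the 10 matricellular genes, 8 passed the filter, and 7 of these were higher in icKO ventricles while 0 were lower. The share called higher over all features was 16.0%. Cilp and Postn had the widest measured differences of the 10 genes, and Cthrc1 was above background on the icKO arrays alone. Fn1, Vcan, Tgfbi and Sparc rose by less than Cilp and Postn, Tnxb was not called, and Tnc and Spp1 did not pass the filter. The median difference of the 8 tested genes was 1.94 on the log2 scale, or 1.86 with Cthrc1 set at the bound explained below, against -0.14 over all 22278 features. In 7 of the 8 tested genes the 3 icKO arrays lay above the 3 control arrays, which was so for 21.6% of all features. These are the same 7 genes that were called, and Cthrc1 among them has control values not well above background.

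The promoter windows of 3 genes that stand for the spread of responses are shown: Postn and Cilp, which had the largest fitted differences, and Tnxb, the tested gene that was not called. They come from RefSeq (GRCm38.p6) and hold 250 bases before to 50 after a start of the gene, and all 3 genes lie on the plus strand. The table held 11 windows for 8 of the 10 genes. Both strands were searched for the core that TEAD factors bind, GGAATG, for the AP-1 site, TGACTCA, and for the TATA box, TATAAA. A match on the opposite strand is marked by its reverse complement, which for the AP-1 site is TGAGTCA. Capitals mark the letters of a match.
Postn, first window, chr3:54359017-54359316: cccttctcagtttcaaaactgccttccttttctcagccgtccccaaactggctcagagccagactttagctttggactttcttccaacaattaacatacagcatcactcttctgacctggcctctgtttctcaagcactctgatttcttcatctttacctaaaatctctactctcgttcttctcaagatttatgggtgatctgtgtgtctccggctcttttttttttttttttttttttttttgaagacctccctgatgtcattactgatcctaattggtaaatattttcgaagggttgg
Postn, second window, chr3:54360857-54361156: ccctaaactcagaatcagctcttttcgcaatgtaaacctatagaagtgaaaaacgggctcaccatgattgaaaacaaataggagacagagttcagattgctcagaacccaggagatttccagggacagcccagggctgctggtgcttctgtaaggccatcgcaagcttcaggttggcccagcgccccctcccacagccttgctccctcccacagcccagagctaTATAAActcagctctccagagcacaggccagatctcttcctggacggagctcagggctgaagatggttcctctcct
Cilp, chr9:65264930-65265229: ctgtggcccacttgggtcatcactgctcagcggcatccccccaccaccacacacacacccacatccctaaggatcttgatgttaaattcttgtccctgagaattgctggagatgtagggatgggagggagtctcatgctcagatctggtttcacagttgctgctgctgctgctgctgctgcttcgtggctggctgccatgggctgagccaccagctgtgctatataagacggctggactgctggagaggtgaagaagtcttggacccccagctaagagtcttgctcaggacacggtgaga
Tnxb, chr17:34670285-34670584: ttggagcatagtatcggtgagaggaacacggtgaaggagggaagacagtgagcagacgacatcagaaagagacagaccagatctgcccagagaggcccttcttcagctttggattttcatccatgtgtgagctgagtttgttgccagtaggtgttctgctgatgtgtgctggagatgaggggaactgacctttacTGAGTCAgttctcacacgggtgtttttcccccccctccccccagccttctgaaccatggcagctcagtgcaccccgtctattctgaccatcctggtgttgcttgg
The TEAD core was in 0 of the 11 windows and in 14.7% of all 32851 windows of the table. The AP-1 letters were in 1 of the 11, that of Tnxb, 55 bases before the start, and in 5.20% of all. The TATA letters were in 4 of the 11, against 13.6% of all, and the match in the second Postn window began 26 bases before the start. The other 3 lie in 1 window of Spp1 and in 2 overlapping windows of Tnc. A match is a description of letters, and a window without one says only that these letters are not in it.

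Postn encodes periostin, a protein with fasciclin domains that binds collagen and integrins and promotes collagen crosslinking. Its probe A_55_P1954086 (NM_001198766) had log2 levels of 4.36, 4.42 and 4.53 on the icKO arrays, against 0.53, -0.57 and -0.12 on the control arrays. The icKO arrays were close to each other and all stood far above the controls. The mean level was 4.43 ± 0.08 in icKO and -0.05 ± 0.55 in control ventricles (SD, n = 3 each), a difference of 4.49 ± 0.27 (SE), or 22.4-fold, with a 95% interval of 3.84 to 5.14 and a limma adjusted p of 0.0002. Only 0.135% of all features had a larger difference. The lowest icKO array exceeded the highest control array by 3.83 on the log2 scale.

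Tgfbi encodes a second fasciclin protein, named for its induction by TGF-beta, which also binds collagens and integrins. Its levels on probe A_51_P212754 (NM_009369) were 4.22, 4.27 and 4.01 on the icKO arrays, against 3.43, 3.0 and 2.90 on the control arrays. The groups did not overlap, but the gap between them was only 0.58. The difference was 1.06 ± 0.16 (SE), or 2.08-fold, with a 95% interval of 0.66 to 1.45 (limma adjusted p = 0.00366). The intervals of Postn and Tgfbi, the 2 fasciclin genes, did not overlap, although the difference between them was not tested.

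Cilp encodes cartilage intermediate layer protein, a matrix protein known from cartilage and also made by cardiac fibroblasts, which binds TGF-beta. Probe A_51_P241319 (NM_173385) had log2 levels of 4.35, 4.62 and 4.18 on the icKO arrays, against 0.38, -1.97 and -0.20 on the control arrays. The icKO values lay together, while control 2 was far below the other controls. The mean was 4.38 ± 0.22 in icKO and -0.60 ± 1.22 in control ventricles (SD, n = 3 each). The difference of 4.98 ± 0.57 (SE), or 31.5-fold, had a 95% interval of 3.60 to 6.36 and an adjusted p of 0.00134 in limma. Without control 2 the difference was 4.29.

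Cthrc1 encodes collagen triple helix repeat containing 1, a secreted protein of activated fibroblasts that is known to limit collagen deposition and to take part in Wnt signalling. Its probe A_52_P453785 (NM_026778) read -1.78, -1.73 and -2.42 on the icKO arrays, against -5.64, -5.60 and -5.98 on the control arrays. It was well above background on 3 of 3 icKO and 0 of 3 control arrays, and it passed the filter through the icKO arrays alone. The control values are therefore only a bound, taken on each array as the higher of the probe's own signal and the dimmest signal of any probe rated well above background. Against that bound Cthrc1 was at least 3.69-fold brighter in icKO ventricles, and leaving out single arrays put the bound between 2.86-fold and 4.30-fold. The limma call (adjusted p = 0.000184) belongs to the fitted difference of 3.76, which uses control values not well above background, and does not test the bound. That fitted difference was 0.70 on the log2 scale with normexp background correction, which is less than the bound. The bound therefore holds only for the deposited processed signal.

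Fn1 encodes fibronectin, the scaffold on which other matrix proteins assemble and a ligand of integrin alpha 5 beta 1. Probe A_55_P2130178 (NM_010233) had levels of 4.89, 5.03 and 4.56 on the icKO arrays, against 3.06, 2.77 and 3.11 on the control arrays. The groups were separated by 1.44, more than the range within either group. The difference was 1.84 ± 0.16 (SE), or 3.59-fold, with a 95% interval of 1.45 to 2.23 (limma adjusted p = 0.000554). Which splice forms of fibronectin the probe detects is not known here.

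Vcan encodes versican, a large proteoglycan that binds hyaluronan and is split by ADAMTS proteases. The probe that stands for it, A_55_P1960202 (NM_001081249), had levels of 1.13, 1.60 and 1.74 on the icKO arrays, against 0.12, -1.37 and -0.42 on the control arrays. The controls were spread more widely than the icKO arrays, and control 2 was again the lowest. The difference was 2.05 ± 0.38 (SE), or 4.13-fold, with a 95% interval of 1.13 to 2.97 and an adjusted p of 0.00706 in limma. Probe A_55_P1960208 (NM_172955), which carries another versican accession, read -0.02, 0.68 and 0.63 on the icKO arrays, against -0.38, -1.21 and -0.71 on the control arrays. These values too did not overlap (difference 1.20 ± 0.27 SE, adjusted p = 0.0140 over 26152 probes). The third versican probe was well above background on control 1 alone and was not tested.

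Sparc encodes osteonectin, a collagen chaperone of the matrix that is abundant in the heart. Its levels on probe A_55_P2046812 (NM_009242) were 9.26, 9.30 and 9.06 on the icKO arrays, against 8.75, 8.44 and 8.69 on the control arrays. The groups did not overlap, with a gap of 0.30, the narrowest of the called matricellular genes. The difference was 0.58 ± 0.13 (SE), or 1.49-fold, with a 95% interval of 0.28 to 0.88 (limma adjusted p = 0.0121). When dim probes were kept and 49244 features tested, the adjusted p was 0.0583 and the call was lost. The other Sparc probe, A_55_P2046807, read 2.53, 2.64 and 2.32 on the icKO arrays, against 1.53, 1.38 and 1.34 on the control arrays. Its difference was 1.08 ± 0.12 (SE, adjusted p = 0.00112 over 26152 probes), wider than the 0.58 of the brighter probe at the same scaling. Over all settings the difference taken for Sparc ran from 0.49 to 1.10, with 1.07 under quantile normalization.

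The tenascins Tnc and Tnxb are large, multi-armed glycoproteins of the matrix. Tenascin X, from Tnxb, is tied to collagen fibrils of mature connective tissue and was the tested gene that did not rise. Its probe A_55_P1989296 (NM_031176) had levels of 3.67, 3.72 and 3.60 on the icKO arrays, against 3.91, 3.67 and 3.97 on the control arrays. The groups overlapped, since control 2 lay among the icKO arrays. The difference was -0.19 ± 0.11 (SE) with a 95% interval of -0.46 to 0.09 (limma adjusted p = 0.219). Its sign turned with spike-in scaling, at 0.17 (adjusted p = 0.339), and with spike-in spots above background, at 0.26 (adjusted p = 0.176). Tenascin C, from Tnc, is best known from development and wound repair. Its 2 probes were not well above background on any of the 6 arrays. Probe A_52_P355169 (NM_011607) read -4.69, -4.21 and -4.49 on the icKO arrays, against -4.32, -5.61 and -4.38 on the control arrays, values in which no order can be read.

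Spp1 encodes osteopontin, a phosphoprotein of bone and of activated macrophages that signals through integrins and CD44. Probe A_55_P2085142 (NM_009263) read -1.93, -2.84 and -3.46 on the icKO arrays, against -5.61, -5.58 and -5.94 on the control arrays. It was well above background on icKO 1 and icKO 2 but not on icKO 3, and on 0 of 3 control arrays, and so it missed the filter. Against the bound of the controls it was 2.17-fold brighter in icKO ventricles. That value takes icKO 3 at its reading although it was not well above background, and so it is rough rather than a lower limit. Leaving out single arrays put it between 1.64-fold without icKO 1 and 2.78-fold without icKO 3.

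**Figure D1:**
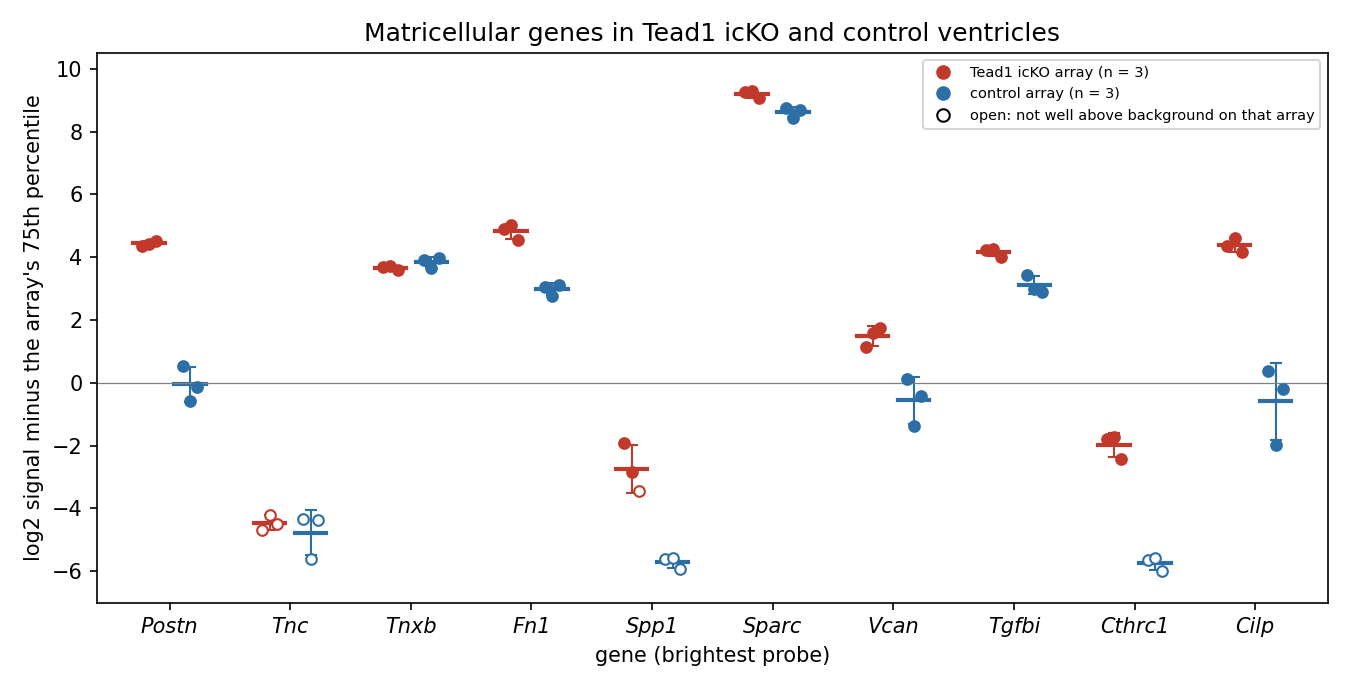
Log2 level (signal minus the 75th percentile of the array) of the 10 matricellular genes on each array, Tead1 icKO left in red and control right in blue; lines are means and bars are SD over 3 arrays, and open circles are values not well above background. Postn and Cilp stand more than 3 log2 units apart between groups, the Tnxb groups overlap, and Tnc is open on all 6 arrays.

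The spread within groups was itself uneven. Among the 8 tested genes the 3 controls ranged over 2.35 on the log2 scale for Cilp, 1.49 for Vcan and 1.10 for Postn, while the icKO arrays ranged over 0.44, 0.61 and 0.17 for the same genes. Control 2 was the lowest control in 6 of the 8 genes, and control 1 was the highest in 5. Among icKO arrays, icKO 2 was the highest in 6 of the 8 genes and icKO 3 was the lowest in 6. The exceptions in both cases were Postn and Vcan, in which icKO 3 was the highest and icKO 1 the lowest.

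A single slide held the 6 arrays, which share a scan per the file headers. The upper slide row held icKO 2, control 1 and control 3, and the lower row held icKO 1, icKO 3 and control 2. Within the upper row the Postn difference was 4.21 and within the lower row 5.01. Cilp differed by 4.52 and 6.23 in these rows and Vcan by 1.75 and 2.80. Fn1 differed by 1.95 in each row, Tgfbi by 1.10 and 1.12, and Sparc by 0.58 and 0.72. Tnxb differed by -0.22 and -0.03. For the 6 called genes every icKO array lay above every control array. A higher icKO level within each row was therefore fixed in advance and is no check on slide position. Cthrc1 has no measured level on the control arrays and was not compared by slide position. The icKO arrays lay in slide columns 2, 3 and 3 and the control arrays in columns 1, 1 and 2, so that column 2 alone held an array of each group. In that column, icKO 1 minus control 3, Postn differed by 4.48, Cilp by 4.55, Fn1 by 1.77, Vcan by 1.55, Tgfbi by 1.32, Sparc by 0.58 and Tnxb by -0.29. The direction for the 6 called genes was fixed here in the same way.

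**Figure D2:**
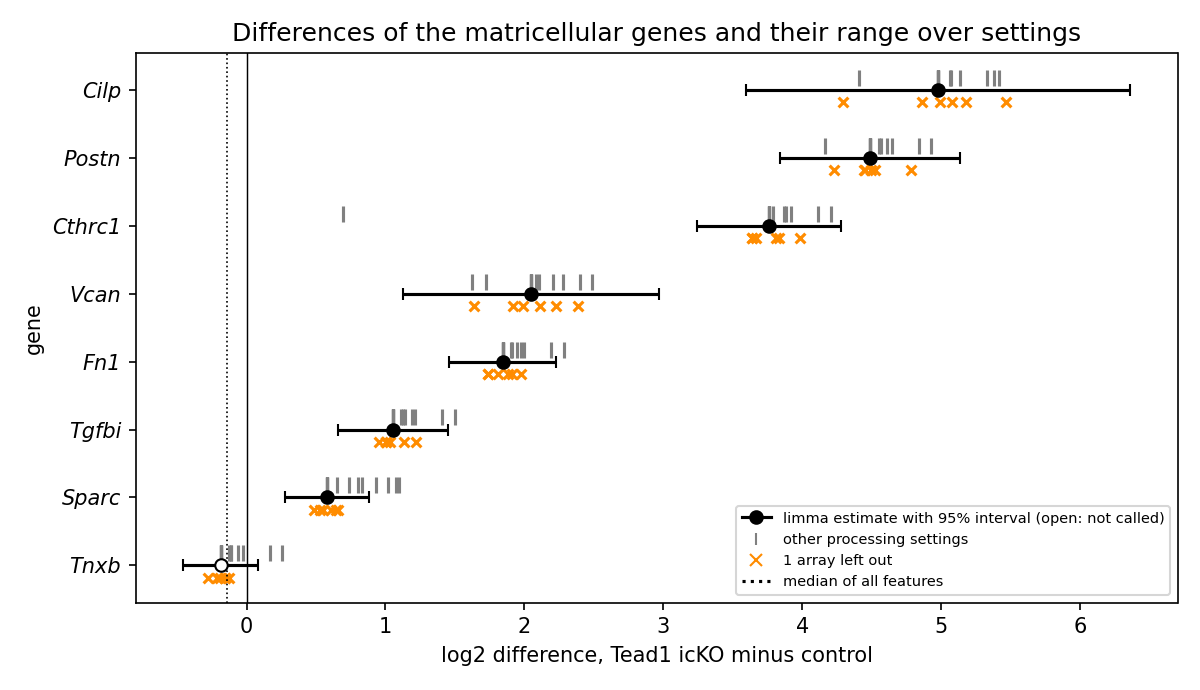
Log2 difference (icKO minus control) of the 8 tested matricellular genes, with its 95% interval from limma; grey ticks are other processing settings, crosses leave out 1 array, and the dotted line is the median of all features at -0.14. Intervals of all genes but Tnxb lie above 0, and the distant tick of Cthrc1 at 0.70 is normexp background correction; all Cthrc1 values there use control signals not well above background.

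At probe level, 10 of the 14 probes passed the filter and 9 of these were higher in icKO ventricles. Over all 26152 probes that passed, 16.1% were called higher. The probes of Sparc that passed gave the same direction, as did those of Vcan. Probes differ in affinity, so that levels of separate probes were not set against each other.

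**Figure D3:**
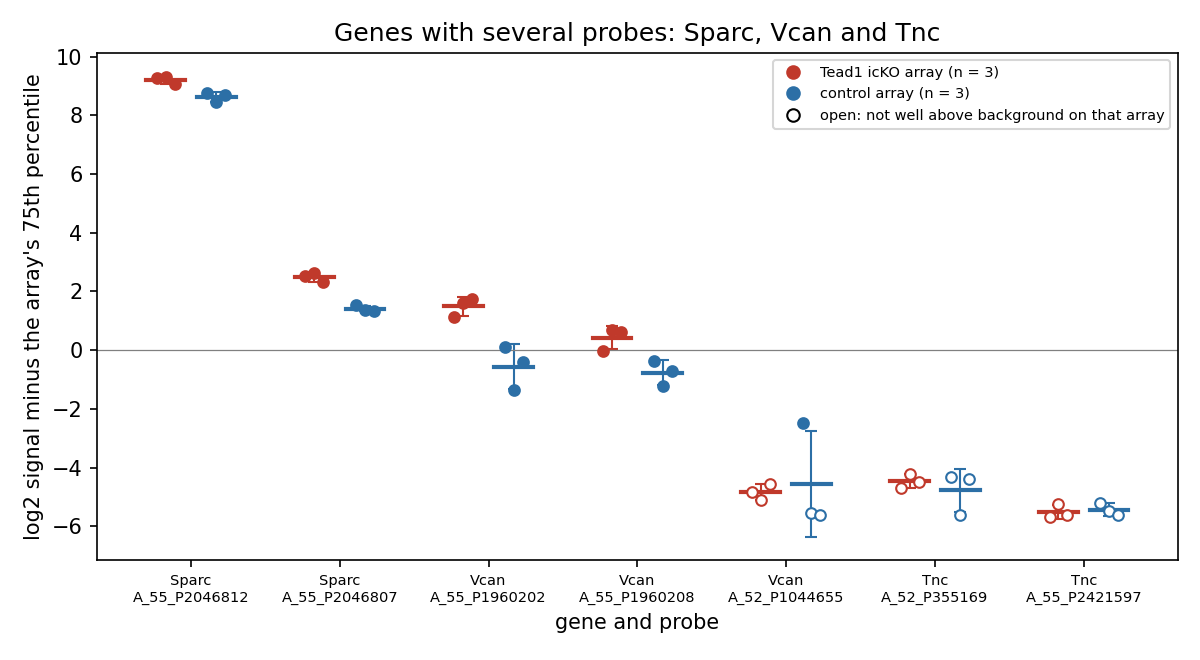
Log2 level (signal minus the 75th percentile of the array) of the 7 probes of genes with several probes, icKO left in red and control right in blue; lines are means, bars SD over 3 arrays, open circles not well above background. Both Sparc probes and the 2 bright Vcan probes are higher on all icKO arrays, and both Tnc probes are open throughout.

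Relatives of the matricellular genes, which belong to the same protein families or are built alike, included genes called higher and genes called lower. Of 19 such genes 10 were tested, and 4 were higher and 2 lower, against 16.0% of all features higher and 28.7% lower. The median difference was 0.32, against -0.14 over all features. Smoc1, a secreted calcium-binding relative of SPARC, had a level of 0.36 ± 0.42 in icKO and -1.63 ± 0.15 in control ventricles (SD, n = 3 each; limma difference 1.99 ± 0.22 SE, adjusted p = 0.00112). Fstl1, a follistatin-like relative of SPARC released by cardiac cells, had 6.30 ± 0.20 in icKO and 4.43 ± 0.51 in control ventricles (difference 1.88 ± 0.26 SE, adjusted p = 0.00254). Stab1, a scavenger receptor with fasciclin domains found on macrophages and endothelium, rose by 0.86 ± 0.16 (SE, adjusted p = 0.00723). Mepe, a mineral-binding relative of osteopontin, was well above background on 0 of 3 icKO and 3 of 3 control arrays and at least 2.56-fold dimmer in icKO. Its limma call (adjusted p = 0.00302) rests on icKO values not well above background and does not test that bound. With normexp background correction the fitted difference of Mepe was -0.72 on the log2 scale, a smaller fall than the bound. Stab2, the endothelial relative of Stab1 that takes up hyaluronan, fell by 1.47 on the log2 scale (adjusted p = 0.0139). That call did not hold without the filter on dim probes (adjusted p = 0.0522) or with spike-in spots above background (adjusted p = 0.0584). Sparcl1, Cilp2, Spock2 and Acan were tested and not called, at 0.26 ± 0.09, -0.26 ± 0.25, 0.39 ± 0.31 and -0.17 ± 0.28 (SE). The 9 relatives that were not tested were Tnr, Tnn, Spock1, Spock3, Bcan, Ncan, Ibsp, Dmp1 and Dspp.

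Receptors through which matricellular proteins signal were mostly higher in icKO ventricles. Of 19 receptor genes 18 were tested, 12 were higher and 1 was lower, against 16.0% and 28.7% of all features, with a median difference of 0.78. Itga5, the fibronectin-specific integrin subunit, had levels of 2.32, 1.80 and 1.80 on the icKO arrays, against -0.18, -0.36 and -0.03 on the control arrays (limma difference 2.16 ± 0.18 SE, adjusted p = 0.000477). Its groups lay far apart. Cd44, the receptor for hyaluronan and osteopontin, read 2.15, 2.34 and 2.03 on the icKO arrays, against 0.52, -0.05 and 0.41 on the control arrays (difference 1.88 ± 0.18 SE, adjusted p = 0.000687). Itgb5, an integrin subunit that pairs with alpha V to bind periostin and vitronectin, had the tightest values of these, with 6.24 ± 0.003 in icKO and 4.93 ± 0.06 in control ventricles (SD, n = 3 each; difference 1.31 ± 0.09 SE, adjusted p = 0.00026). Itgb6, an integrin subunit of epithelia that activates latent TGF-beta, was the receptor that fell. It read -4.17, -1.73 and -1.73 on the icKO arrays, of which icKO 1 was not well above background, against 0.58, 0.99 and 1.25 on the control arrays. Its difference was -3.49 ± 0.66 (SE, adjusted p = 0.00754), or -2.68 without icKO 1. Itgav and Itgb3, the subunits of the classical vitronectin receptor, were not called, at 0.50 ± 0.27 (SE, adjusted p = 0.181) and 1.71 ± 0.65 (SE, adjusted p = 0.0738).

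Matrix partners and the enzymes that process matricellular proteins were also mostly higher in icKO ventricles. Of 26 genes 19 were tested, and 15 were higher and 1 was lower, against 16.0% and 28.7% of all features, with a median difference of 1.54. Fbn1, which encodes the microfibril protein fibrillin 1, had a level of 3.18 ± 0.12 in icKO and 1.11 ± 0.42 in control ventricles (SD, n = 3 each; limma difference 2.06 ± 0.22 SE, adjusted p = 0.000985). Mmp3, a metalloprotease that cleaves fibronectin and proteoglycans, read 2.08, 3.27 and 2.42 on the icKO arrays, against -0.55, -0.92 and -1.30 on the control arrays (difference 3.51 ± 0.34 SE, adjusted p = 0.00076). The fibrillar collagen genes Col1a1, Col1a2 and Col3a1 differed by 1.93, 1.78 and 1.69 and were each called higher. Among ADAMTS proteases that cut versican, Adamts4 was well above background on 3 of 3 icKO and 0 of 3 control arrays and at least 3.05-fold brighter in icKO. Its limma call (adjusted p = 0.000181) rests on control values not well above background and does not test that bound. With normexp background correction the fitted difference of Adamts4 was 0.54 on the log2 scale, less than the bound. Adamts1 rose by 1.54 ± 0.20 (SE, adjusted p = 0.00206), while Adamts5 and Adamts9 were not called, at 0.29 and 0.30. Adamts15 fell by 1.03 on the log2 scale (adjusted p = 0.0148), a call lost with both spike-in scalings and with no filter. The hyaluronan synthases Has1 and Has2, whose product versican binds, were among the 7 genes not tested, with Hapln1, Hapln4, Adamts20, Mmp9 and Mmp12.

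TGF-beta is the classical inducer of several matricellular genes and is stored in the matrix by latent TGF-beta binding proteins. All 16 genes of this list were tested, 11 were higher and 1 was lower, against 16.0% and 28.7% of all features, with a median difference of 0.86. Ltbp2, a binding protein of microfibrils that is an exception in not binding latent TGF-beta, read 5.98, 6.19 and 6.27 on the icKO arrays, against 0.90, -0.40 and 0.50 on the control arrays. The groups were more than 5 log2 units apart (limma difference 5.82 ± 0.32 SE, adjusted p = 0.000172). Ltbp3, which does bind latent TGF-beta, had 4.87 ± 0.03 in icKO and 2.91 ± 0.11 in control ventricles (SD, n = 3 each; difference 1.96 ± 0.10 SE, adjusted p = 0.000137). Of the ligands, Tgfb3 rose by 1.45 ± 0.17, Tgfb2 by 0.62 ± 0.15 and Tgfb1 by 0.42 ± 0.10 (SE). Of the receptors, Tgfbr1 rose by 2.01 ± 0.19 (SE, adjusted p = 0.000747) and Tgfbr2 by 0.94 ± 0.11, while Tgfbr3 was not called at -0.01 ± 0.10. The signal carriers Smad2, Smad3 and Smad4 were not called, with differences between -0.02 and 0.14. Smad7, a target and inhibitor of the pathway, rose by 1.36 ± 0.40 (SE, adjusted p = 0.0330). Ltbp1 was called lower at -0.37 ± 0.12 (SE, adjusted p = 0.0464), a call that was lost under 11 other settings, among them those without icKO 2, icKO 3, control 1 or control 3, and that turned to 0.076 with spike-in spots above background.

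**Figure D4:**
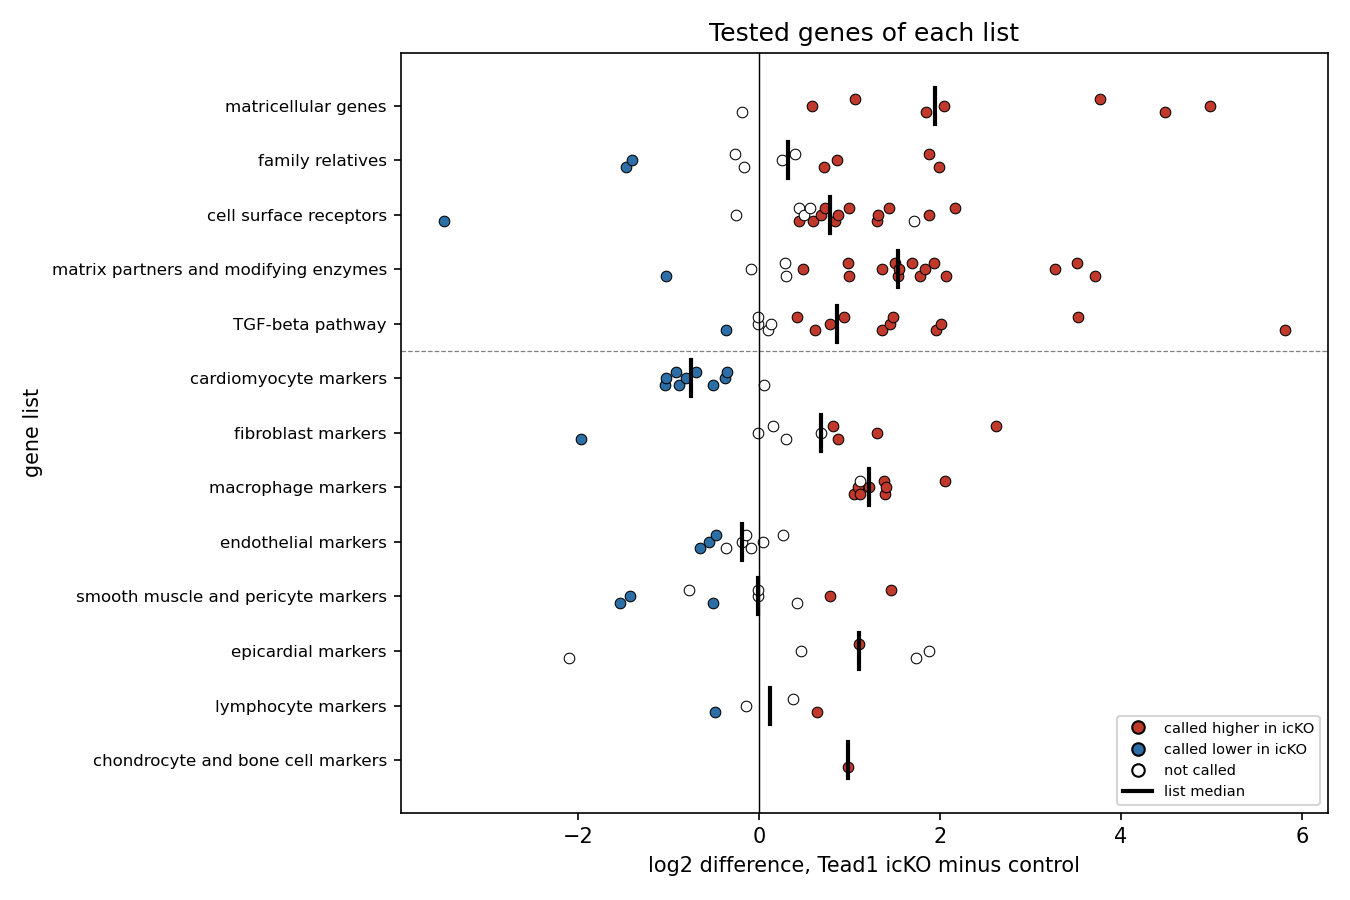
Log2 difference (icKO minus control) of each tested gene of the matricellular genes, 4 related lists and, below the dashed line, 8 lists of cell type markers; red was called higher, blue lower, open circles not called, and thick lines are list medians. Medians are 1.94 for the matricellular genes, 1.54 for matrix partners and enzymes, 1.21 for macrophage and -0.75 for cardiomyocyte markers.

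Markers of several cell types moved with these differences, and their part in them was not tested. The counts below stand against 16.0% of all features called higher and 28.7% called lower. Of 10 cardiomyocyte markers 9 were lower, with Tnni3, a troponin subunit, at -1.03 ± 0.09 and Pln, the regulator of the calcium pump, at -0.92 ± 0.10 (SE). Their summed signal, in multiples of the array's 75th percentile, was 6029 to 6715 on the icKO arrays and 9589 to 11527 on the control arrays. With spike-in spots above background 3 of the 10 were called lower. Of 9 fibroblast markers 4 were higher and 1 was lower, with summed signals of 532 to 562 on the icKO arrays and 262 to 366 on the control arrays. Mfap5, a microfibril protein, rose by 2.61 ± 0.29 and Pdgfra, the receptor that defines cardiac fibroblasts, by 0.88 ± 0.16, while Scara5 fell by 1.97. Tcf21, a transcription factor of resident cardiac fibroblasts, was not called at 0.69 ± 0.24 (SE, adjusted p = 0.0574). Of 9 macrophage markers tested 8 were higher, with summed signals of 106 to 145 on the icKO arrays and 43.7 to 64.2 on the control arrays. Ctss, a lysosomal protease, rose by 2.05 ± 0.24 and Csf1r, the receptor for macrophage colony stimulating factor, by 1.10 ± 0.15. The summed signals of endothelial markers overlapped, at 167 to 195 and 178 to 193 on icKO and control arrays. Of 9 endothelial markers 3 were called lower, a share near that of all features, and with spike-in scaling 2 were called higher instead. Those of smooth muscle and pericyte markers overlapped too, at 67.9 to 78.3 and 68.6 to 99.2, with 2 of 9 higher and 3 lower. Of 5 epicardial markers tested 1, Wt1, was higher (summed signal 4.53 to 8.31 on icKO arrays and 3.08 to 5.70 on control arrays). Of 4 genes tested from the lymphocyte list, Ptprc was higher and Cd3e lower (1.86 to 2.53 and 2.21 to 2.55). Ptprc is found on leukocytes in general, not on lymphocytes alone. Of the 8 chondrocyte and bone cell markers only Sox9 was tested, and it was higher. Col2a1, Col9a1, Matn3, Sp7 and Runx2, which define cartilage and bone, were above background on 0 of 6 arrays and Col11a2 on 2, although Cilp and Sparc are also genes of those tissues. The calls of Wt1, Ptprc, Cd3e and Sox9 were weak: that of Wt1 was lost without control 1, that of Ptprc without any single array but icKO 3, that of Cd3e without icKO 1, icKO 3, control 1 or control 3, and that of Sox9 without any icKO array or control 3. Each was also lost with no filter on dim probes. With normexp, Ptprc differed by 0.16 (limma adjusted p = 0.282) and Sox9 by 0.28 (adjusted p = 0.104), while Wt1 and Cd3e stayed called.

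The 5 named genes whose profile over the 6 arrays was most like that of Postn were found by the root mean square difference between log2 levels centred on each gene's mean. They were Panx1, a membrane channel, at 0.0738, then the thrombospondins Thbs4 and Thbs1, which are themselves matricellular proteins, at 0.186 and 0.203. Nox4, an oxidase that makes hydrogen peroxide, followed at 0.316 and Adgra1, an adhesion G protein-coupled receptor, at 0.352. Panx1 read 4.42, 4.71 and 4.62 on the icKO arrays, against 0.70, -0.45 and 0.00 on the control arrays, so that control 2 was its lowest control as it was for Postn. Thbs4 read 5.21, 5.47 and 5.34 on the icKO arrays, against 1.17, 0.54 and 0.50 on the control arrays. Thbs1 read 2.69, 2.50 and 2.49 on the icKO arrays, against -1.16, -2.00 and -1.70 on the control arrays. All 5 were chosen for this likeness, so their differences between 4.18 and 4.73 are a description. Adgra1 was well above background on 0 of 3 control arrays. Its fitted difference and its likeness to Postn therefore rest on control values not well above background. With normexp background correction the fitted difference of Adgra1 was 0.9996 on the log2 scale, against 4.17 for Postn.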

How the data were processed

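Cy3-labelled total RNA of heart ventricle was run on one-colour arrays, per the labels' protocols. The deposited files hold spot intensity on a linear scale from Agilent Feature Extraction 11.0.1.1 (design 028005, build mm9), per the file headers, and the submitters' processing notes name version 9.1. The authors' deposited value table holds intensity too, with column medians between 18.37 and 18.47, and how it was made is not stated in the labels or headers. Each column correlated with the log2 scanner values of the same array at 0.9995 or more, so it holds uncentred levels. The unit of the levels is log2 of the deposited processed signal, which the authors' software had background-subtracted. Each array's 75th percentile over its non-control spots was subtracted, outlier-flagged spots were dropped and a probe's remaining spots averaged. Each array held 62976 spots, and 0 were saturated.

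The filter left 26152 of 55681 probes. A RefSeq table of GRCm38.p6 named 26582 probes of 20145 genes by accession, and it was used for names since the design uses another build. Unnamed probes were tested singly. The comparison used limma 3.58.1 in R 4.3.3 (lmFit, then eBayes), with group as the only term, and all adjusted p-values come from it. The steps were tested on simulated data. Alternatives were normexp (offset 50, on the median spot signal, since the mean signal column was not used here), quantile, median and spike-in scaling (350 spots), the authors' table, other filters, eBayes with trend and robust, averaging a gene's probes, keeping outlier spots, replicate and slide row blocks, and each array left out. Scaling on the 175 spike-in spots above background was added after seeing the data.

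The members and lists were chosen with earlier results of these data known. The named genes are the members, up to 3 per direction from each related list and up to 2 from each marker list by smallest p, and the 5 most like Postn. Not every gene this rule takes is reported here. Col1a1, Col1a2, Col3a1, Adamts1, Adamts5, Adamts9, Itgav, Itgb3, Pdgfra, Tcf21 and the further TGF-beta genes were named from their lists after their values were seen. So were Sparcl1, Cilp2, Spock2 and Acan. Same-numbered icKO and control arrays did not deviate together (correlations of -0.05, -0.13 and 0.00 for numbers 1, 2 and 3), so the numbers do not pair them. The number of arrays limits the precision.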

Additional observations from a re-analysis of the deposited data

How the results depend on the processing

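The count of 7 matricellular genes called was 7 under each of the other settings but the filter on all 6 arrays, which gave 6 because Cthrc1 was then not tested. With no filter the 7 held Spp1, whose control values lie at background, and not Sparc. Of 151 values of the 8 tested genes under 19 other settings, 148 kept direction and side of the threshold. The others were the Sparc call above and Tnxb, which reversed to 0.17 with spike-in scaling and to 0.26 with spike-in spots above background. The 148 include values of Cthrc1, which rest on control signals not well above background. Its fall from 3.76 to 0.70 with normexp counts as kept, since size was not part of this tally. Ltbp1 reversed to 0.076 with spike-in spots above background. With no filter, 6123 features were called rather than 9974 and 8 receptors rather than 13; more features were then tested. The share of calls that were higher was 35.8%, against 54.6% with median scaling, 45.8% with quantile normalization, 74.1% with spike-in scaling and 81.0% with spike-in spots above background; the cause was not tested. Without 1 array, calls ranged from 7546 to 9084 features, 5 to 6 relatives, 9 to 14 receptors, 16 to 17 partners and enzymes and 9 to 11 TGF-beta genes, and 7 matricellular genes throughout.

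The replicate block gave 7881 features, 7 matricellular genes, 6 relatives, 10 receptors, 16 partners and enzymes and 10 TGF-beta genes. No pairing of the arrays by these numbers was seen above. Signal near background limits Tnc, Spp1, Cthrc1, Mepe, Adamts4 and Adgra1, and also Itgb6 on icKO 1. For Cthrc1, Mepe and Adamts4 only a bound can be given, for Spp1 a rough value and for Tnc no order. No bound is given here for Adgra1. The bounds hold for the deposited processed signal, and normexp gave smaller fitted differences for Cthrc1, Mepe, Adamts4, Adgra1 and Itgb6.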
